A study of Mus musculus with 6 samples.

Results

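Plasmacytoid dendritic cells (pDC) were 76 of 6364 cells kept from 2 single-cell libraries of YUMM2.1 mouse melanoma material. They were selected on measured counts of unique molecular identifiers (UMIs, each standing for 1 captured transcript). A pDC held at least 1 UMI of Siglech and at least 1 UMI summed over Bcl11a, Ccr9 and Ly6d, no UMI of Cd3e or Cd3d, and fewer than 5 UMIs summed over C1qa, C1qb and C1qc. The Empty vector library held 60 of them among 3978 kept cells and the Bmal1 WT library held 16 among 2386.

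The study asked how the clock transcription factor Bmal1 acts in melanoma. YUMM2.1 is a mouse melanoma line, and the labels separated a line carrying an empty vector from one carrying wild-type Bmal1, with 3 hashtagged replicates each; a group labelled Bmal1 bHLH was not analysed here, because its files repeat those of Bmal1 WT. By the study's methods such lines were made with lentivirus and sorted for GFP, so both groups share the vector, and only Bmal1 WT carries the added Bmal1. The labels gave no age, strain, tissue or dissociation for the single cells and did not say whether they came from culture or from tumors, although immune cells are not part of a melanoma line. Each group came as 1 library, so group and library cannot be told apart, and a spread between hashtags can be technical. The Empty vector library held 34232927 gene UMIs in 4147 barcodes (median 5094 per kept cell) and the Bmal1 WT library 39561569 in 2785 barcodes (median 7570.5). The pDC had a median of 9086 UMIs in Empty vector (range 1084 to 24635) and 12734 in Bmal1 WT (6823 to 38920), and no pDC barcode occurred in both libraries.

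Plasmacytoid dendritic cells are a branch of the dendritic family specialised in sensing viral nucleic acid in endosomes through Tlr7 and Tlr9 and in releasing type I interferon. Their identity rests on the basic helix-loop-helix factor Tcf4 (E2-2), which binds E-box motifs, and is opposed by its inhibitor Id2, which favours conventional dendritic cells. In tumors they are known in resting as well as in interferon-producing states, and they carry several genes usually seen in lymphocytes.

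The hashtag oligos are shown because every replicate value below rests on which of them a cell carried. Each is an antibody barcode in the 5′ to 3′ direction, the first 3 from Empty vector and the last 3 from Bmal1 WT.
h1: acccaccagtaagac
h7: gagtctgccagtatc
h8: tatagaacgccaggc
h3: cttgccgcatgtcat
h5: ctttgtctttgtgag
h9: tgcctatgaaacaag

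Of the 60 Empty vector pDC, 52 carried 1 hashtag (20 with h1, 17 with h7 and 15 with h8), 6 carried several and 2 none. Of the 16 Bmal1 WT pDC, 15 carried 1 hashtag (7 with h3, 6 with h5 and 2 with h9) and 1 carried several. The h9 replicate therefore rested on 2 cells and 25228 UMIs, against 115932 UMIs for h5 and 92609 for h3.

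The promoters of 3 pDC genes are shown because Tcf4 binds E-boxes. The gene Siglech encodes the pDC lectin used to find the cells, Klk1 encodes a kallikrein and Bst2 the surface protein tetherin. Each sequence is the 250 bases before the RefSeq start of the gene (GRCm38.p6), written 5′ to 3′ on the gene's strand, with every E-box (CANNTG, which reads the same form on both strands) in capitals.
Siglech, chr7:55767934-55768183, plus strand: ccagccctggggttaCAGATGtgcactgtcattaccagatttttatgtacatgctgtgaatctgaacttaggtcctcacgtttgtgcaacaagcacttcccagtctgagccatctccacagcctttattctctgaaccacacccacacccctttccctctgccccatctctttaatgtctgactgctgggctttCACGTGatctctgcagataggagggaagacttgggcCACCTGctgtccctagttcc
Klk1, chr7:44225110-44225359, plus strand: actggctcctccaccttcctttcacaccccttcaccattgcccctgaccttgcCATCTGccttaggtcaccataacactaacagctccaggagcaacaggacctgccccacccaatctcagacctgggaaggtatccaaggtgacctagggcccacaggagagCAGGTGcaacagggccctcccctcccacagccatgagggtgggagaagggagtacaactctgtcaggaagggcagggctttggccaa
Bst2, chr8:71537473-71537722, minus strand: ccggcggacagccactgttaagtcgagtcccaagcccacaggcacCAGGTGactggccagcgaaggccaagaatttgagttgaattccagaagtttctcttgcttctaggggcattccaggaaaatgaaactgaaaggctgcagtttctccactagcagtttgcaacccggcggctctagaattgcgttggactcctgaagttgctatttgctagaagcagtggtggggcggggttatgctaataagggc

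The Siglech window held 3 E-boxes, at 235, 56 and 20 bases before the start, that of Klk1 held 2 and that of Bst2 held 1. Of the 19 further pDC identity genes listed below, 16 had a promoter in the table and 11 of those (68.8%) held at least 1 E-box, against 66.0% of all 27025 promoters. The motif was thus about as frequent in pDC genes as elsewhere in these windows.

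The label was set beside 10 pDC markers that the rule did not use: Cox6a2, Klk1, Klra17, Bst2, Cd300c, Pacsin1, Tcf4, Irf8, Smim5 and Rpgrip1. These were chosen with earlier results of these data known, so they describe the members and are no independent check of the label. Over the 76 members, Bst2 had a UMI in 76 cells, Tcf4 in 75, Irf8 in 68, Cox6a2 (a muscle-type subunit of cytochrome c oxidase) in 56, Pacsin1 in 51, Cd300c in 50, Rpgrip1 in 47, Smim5 in 42, Klra17 in 38 and Klk1 in 26. Of the genes in the rule, Bcl11a had a UMI in 75 members, Ccr9 in 66 and Ly6d in 49. The members carried a median of 8 of the 10 markers, and 19 cells carried 9 and 10 cells all 10.

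Because a droplet can pick up free RNA, these shares were set against T cells (at least 2 UMIs of Cd3e and Cd3d). Siglech had a UMI in 2 of 1021 Empty vector T cells (0.196%, median depth 5289 UMIs) and in 1 of 379 Bmal1 WT T cells (0.264%, median 6735). Cox6a2 had a UMI in 0.881% and 3.69% of the T cells of Empty vector and Bmal1 WT. After every cell was thinned to 2000 UMIs, Cox6a2 was still found in 55.9% of Empty vector pDC and 37.5% of Bmal1 WT pDC, and Klk1 in 23.7% and 31.3%; thinning left out 1 pDC. Other markers were found in many T cells before thinning: Bst2 in 35.0% and 49.9%, Irf8 in 35.3% and 37.2%, Rpgrip1 in 16.5% and 22.7%, Tcf4 in 10.3% and 14.5% and Pacsin1 in 9.99% and 12.1%. Irf8 also had a UMI in 89.2% of Empty vector Xcr1 cells. Klra17, Cd300c and Smim5 were found in no Empty vector T cell and in 0%, 0.528% and 0.264% of those of Bmal1 WT, so the count of 10 mixes markers of unequal background.

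Members with little Siglech stood apart from the rest. Siglech ranged from 1 to 62 UMIs per cell among Empty vector members (median 17) and from 1 to 69 among Bmal1 WT members (median 18.5). The 20 members with 1 to 5 Siglech UMIs (14 Empty vector, 23.3% of its pDC; 6 Bmal1 WT, 37.5%) carried a median of 4 of the 10 markers, the 21 with 6 to 19 a median of 8, and the 35 with 20 or more a median of 9. Depth did not order these bins the same way, with median depths of 10547.5, 5344 and 11858 UMIs.

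**Figure D1:**
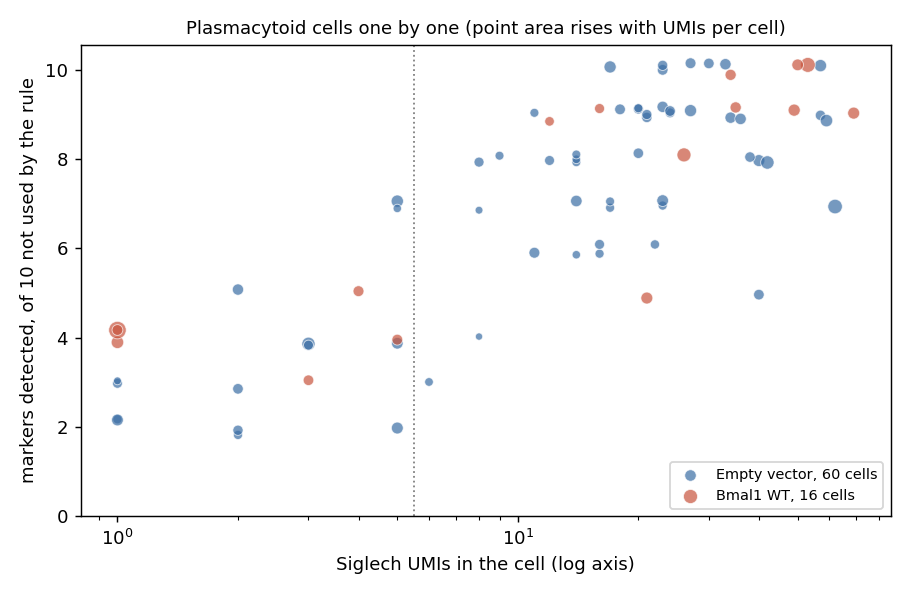
Each point is 1 pDC, placed by its Siglech UMIs (x, log axis) and by how many of 10 markers outside the rule had a UMI (y, counts, shifted slightly so that points do not cover each other), with larger points for deeper cells and colors for Empty vector and Bmal1 WT. The 20 cells left of the dotted line hold 1 to 5 Siglech UMIs and a median of 4 markers, and the 35 cells with 20 or more hold a median of 9.

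The same bins differed in level. Summed over cells, Cox6a2 was 92.8 CPM (counts per 1000000 UMIs) in members with 1 to 5 Siglech UMIs (5 of 20 cells) and 806 CPM in those with 20 or more (32 of 35 cells). Irf8, a transcription factor of dendritic development, was 881 against 3772 CPM, Tcf4 1855 against 3108 CPM and Bst2 666 against 1926 CPM. Some genes of conventional dendritic cells were higher in the first bin, with Cst3 (cystatin C) at 8141 against 563 CPM, Id2 at 481 against 48.1 CPM (5 of 20 cells), Cd209a at 316 against 98.5 CPM and H2-Aa at 2450 against 1164 CPM. A single Bmal1 WT cell, the deepest of the 76 members with 38920 UMIs and 1 Siglech UMI, held 1513 of the 1931 Cst3 UMIs of that bin, 256 of the 581 H2-Aa UMIs and 98 of the 209 Irf8 UMIs. Without it, an alternative added after the data were seen, the bin had 2108 CPM of Cst3, 353 of Id2, 1639 of H2-Aa, 378 of Cd209a and 559.9 of Irf8. These values describe the bins, which share the Siglech count with the rule, and no test was made of them.

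All 8 members without an Irf8 UMI (6 Empty vector, 2 Bmal1 WT) held 1 to 5 Siglech UMIs. Each of the 8 still carried Tcf4 (median 33 UMIs, range 3 to 63) and Bcl11a (median 29), and 5 carried Cd209a. Their median depth was 12009 UMIs, against 9838 for the 68 with Irf8.

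At the edge of the rule, the 7 members with exactly 1 Siglech UMI had no Cox6a2 UMI and a median of 3 markers. Outside it, 8 cells with a Siglech UMI were left out, 6 for lack of Bcl11a, Ccr9 and Ly6d and 2 for a Cd3 UMI. Those last 2 cells each carried 9 of the 10 markers. A further 80 cells had no Siglech but 3 or more UMIs of Bcl11a, Ccr9 and Ly6d together. They held 1 Cox6a2 UMI in all and a median of 3 markers.

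Of 8 B cell markers 7 were at 0 (among them Cd79a, Ms4a1, Pax5, Ebf1, Fcmr and Cd22) and Ighd had 13 UMIs, while Ighm, the immunoglobulin mu heavy chain, had 811 UMIs in 74 of 76 members. With Ighm, the plasma cell list (Tnfrsf17 at 0 of 5) summed to 1118 to 1407 CPM over the Empty vector hashtags and 673 to 1015 CPM over those of Bmal1 WT; Mzb1 had 71 UMIs in 27 members and Jchain 8 UMIs. Of 9 T cell markers 4 were at 0, 2 of them (Cd3e and Cd3d) by the rule; the list summed to 12.7 to 49.7 CPM in the Empty vector hashtags and 0 to 8.63 CPM in Bmal1 WT. All 5 mast cell or basophil markers and 4 of 5 neutrophil markers were at 0, and so were Sox10 and S100b of 5 melanoma markers. The macrophage or monocyte list had Adgre1, Ms4a7 and C1qc at 0 of 11 genes and summed to 115 to 497 CPM over the Empty vector hashtags against 396 to 768 CPM over those of Bmal1 WT. C1qa, C1qb and C1qc of this list were kept low by the rule. The 8 NK cell markers, none at 0, summed to 23.1 to 257 and 25.9 to 159 CPM, and the fibroblast list, with Col3a1 and Pdgfrb at 0 of 6, to 4.14 to 12.7 and 0 to 32.4 CPM. The endothelial list, with Emcn at 0 of 4, summed to 360.3 to 477 and 162 to 317 CPM, with 157 UMIs of Cdh5. The conventional type 1 list (Xcr1, Clec9a, Wdfy4, Cadm1, Itgae) summed to 248 to 352 and 227 to 914 CPM. In Bmal1 WT pDC, all 18 Xcr1 UMIs were in 1 of 16 members, and all 25 Itgae UMIs were in 1 member. The type 2 list summed to 588 to 777 and 198 to 723 CPM. The mature list, with Ccl22 and Nudt17 at 0 of 5, summed to 7.69 to 19.1 and 0 CPM. The part of droplets holding more than 1 cell in these values was not tested, and no doublet caller was run.

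The share of pDC among all kept cells was lower in each Bmal1 WT hashtag than in each Empty vector hashtag. Among all kept cells with 1 hashtag, pDC made up 1.43% (h1, 20 of 1403), 2.44% (h7, 17 of 696) and 1.34% (h8, 15 of 1123) in Empty vector. In Bmal1 WT they made up 0.875% (h3, 7 of 800), 1.21% (h5, 6 of 495) and 0.613% (h9, 2 of 326). The groups did not overlap, but the highest Bmal1 WT value lay close to the lowest Empty vector value, and the exact counting intervals of all 6 overlapped.

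Empty vector averaged 1.73% ± 0.615 (SD, n = 3) against 0.900% ± 0.300 (n = 3) for Bmal1 WT, a difference of -0.834 percentage points. A two-sided exact permutation test gave p = 0.1, the smallest value that 3 against 3 allows (0.15 adjusted over 3 denominators), so the design cannot place the difference past a threshold of 0.05. Among gated dendritic cells the pDC share was 15.3%, 16.7% and 12.7% by Empty vector hashtag (14.9% ± 2.01) against 6.73%, 10.5% and 5.26% for Bmal1 WT (7.51% ± 2.72), again without overlap (exact permutation p = 0.1, adjusted 0.15). Among cells with a Ptprc (CD45) UMI the means were 1.87% ± 0.658 and 1.17% ± 0.476 and the groups overlapped (exact permutation p = 0.3). Over whole libraries the shares were 1.51% (exact Clopper-Pearson 95% interval 1.15 to 1.94) and 0.671% (0.384 to 1.09). These intervals cover counting error only.

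The denominators moved as well. Cells with a Ptprc UMI were 1298 of 1403, 648 of 696 and 1045 of 1123 in Empty vector h1, h7 and h8. In Bmal1 WT h3, h5 and h9 they were 688 of 800, 353 of 495 and 255 of 326. A larger part of the Bmal1 WT cells thus had no Ptprc UMI, and the part of this in the all-cell difference was not tested. Xcr1 dendritic cells were 1.07%, 0.287% and 0.980% of cells in Empty vector h1, h7 and h8 and 3.50%, 1.62% and 4.91% in Bmal1 WT h3, h5 and h9. That class is part of the dendritic denominator. With Empty vector h7 left out the difference over all cells was -0.480 percentage points, so 1 hashtag carried much of it. The difference kept its sign with cells thinned to 2000 UMIs (-0.956) and with members of at least 6 Siglech UMIs (-0.900), a limit chosen after the data were seen.

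**Figure D2:**
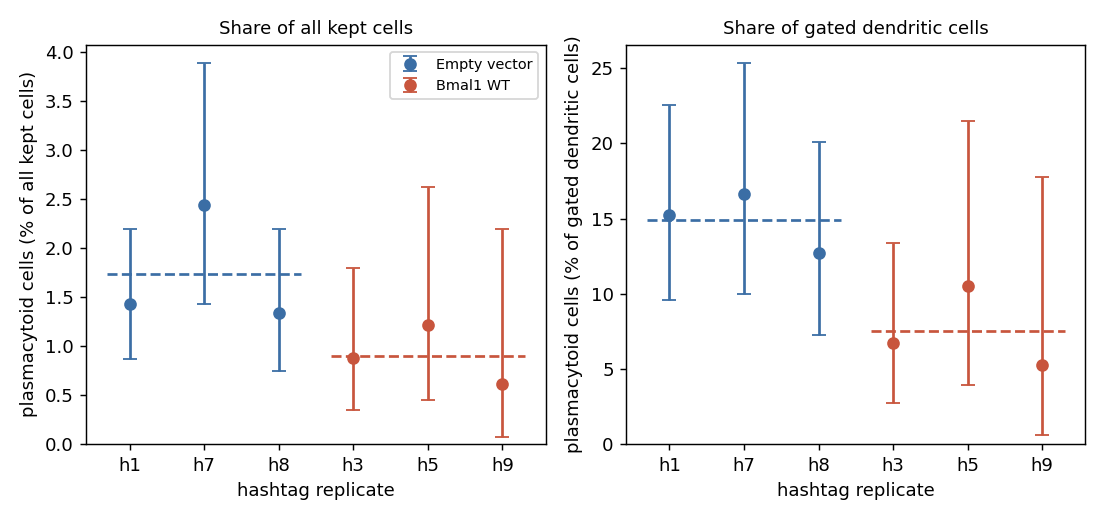
Share of pDC (y, percent) by hashtag replicate (x), of all kept cells on the left and of gated dendritic cells on the right, with exact 95% counting intervals and dashed lines at the group means. The 3 Empty vector points lie above the 3 Bmal1 WT points in both panels, with means of 1.73% and 0.900% on the left and 14.9% and 7.51% on the right. The share of cells with a Ptprc UMI, for which the groups overlapped, is not drawn.

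To describe what set pDC apart, their summed counts were compared with 3 other dendritic classes in the Empty vector hashtags. The Xcr1 class needed Xcr1 and 1 of Clec9a, Wdfy4 or Cadm1 (15, 2 and 11 cells with h1, h7 and h8), the mature class Ccr7 and Fscn1 (41, 24 and 39 cells), and the Cd209a/Mgl2 class at least 2 UMIs of these lectins (55, 59 and 53 cells). Cells without a single hashtag did not enter the sums. The fold given is pDC against the mean of the 3 classes on the log2 scale, from edgeR's quasi-likelihood test with the hashtag as a block and Benjamini-Hochberg adjustment over all 7850 genes tested. Folds are given ± their standard error (SE) and means ± SD over the 3 hashtags. Genes used in any gate received no test in this comparison. A gene could reach the minimum of 50 UMIs through the pDC alone, so the counts given for lists of pDC genes are descriptions and no support for those lists. The p-values of such genes are descriptions as well. Since all 4 classes were gated on counts of the same cells, the part of the gates in the calls was not tested.

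Of the 7850 genes, 1235 were higher in pDC (15.7%) and 496 were lower (6.32%) at an adjusted p under 0.05. Under TMM scaling the split was 867 higher and 635 lower, which took the share of higher calls from 71.3% to 57.7%, and the median of all genes was 0.19 with scaling by totals and -0.02 with TMM. Folds below are to be read against that 0.19. Of the 1235 higher genes 1102 lay on the same side against each class, and 369 passed against each class alone; of the 496 lower genes these were 457 and 121. The h7 replicate of the Xcr1 class held only 2 cells.

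The rule genes are given first as a description. Siglech was 1855, 2438 and 2076 CPM in pDC of h1, h7 and h8 and had no UMI in the 3 other classes. Ccr9, the chemokine receptor for gut and thymus homing, was 1851, 2445 and 2822 CPM, with class means of 36.0, 2.78 and 4.81 CPM. Bcl11a, a transcription factor of lymphoid and pDC development, was 1723, 1915 and 1471 CPM, against 43.4, 5.55 and 128 CPM. In Bmal1 WT pDC of h3, h5 and h9, Ccr9 was 1900.5, 879.8 and 4836 CPM and Bcl11a 1155, 681 and 1784 CPM.

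Every one of the 19 pDC identity genes outside the rule was higher in pDC (18 of 19 by DESeq2). Cox6a2 (chr7:128205435-128206387, GRCm38) was 699.9, 892 and 497 CPM in the pDC of h1, h7 and h8 and had no UMI in the summed cells of the other classes; outside the sums, 1 of all 126 mature cells had a UMI. The pDC level was thus at least 935-fold higher than the limit that 3 counts over the other classes allow (adjusted p = 1.53e-09, edgeR). In Bmal1 WT pDC it was 486, 405 and 555 CPM. Klk1 (chr7:44225360-44229618) was 199, 76.9 and 389 CPM and at least 306-fold above the same limit (edgeR adjusted p = 5.68e-08). For Klk1 DESeq2 gave an adjusted p of 0.0614. Both genes reached the minimum for a test through their pDC counts alone, so their p-values are descriptions.

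Bst2 was 1665, 1584 and 1701 CPM in pDC, with means over 3 hashtags of 71.3 in the Xcr1 class, 113 in the mature class and 245 in the Cd209a/Mgl2 class. The groups did not overlap, and the log2 fold was 3.74 ± 0.23 (edgeR adjusted p = 1.17e-09). Ly6c2, whose reads can be shared with its paralog Ly6c1, was 2468, 3222 and 2102 CPM against 0, 10.7 and 104 CPM. The inhibitory collagen receptor Lair1 was 989.8, 899.7 and 1127 CPM against 44.2, 6.88 and 93.5 CPM. The identity genes were not all private to pDC, since Ctsl (cathepsin L) at 940.2 ± 78.7 CPM overlapped the Xcr1 class, whose mean was 345 CPM, and Pld4, an endosomal nuclease, at 784 ± 104 CPM compared with 219, 34.0 and 256 CPM.

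The transcription factors followed. Tcf4 was 2597, 4106 and 2999.9 CPM in pDC against means of 77.4, 87.4 and 245 CPM in the Xcr1, mature and Cd209a/Mgl2 classes, without overlap and with a log2 fold of 4.65 ± 0.24 (edgeR adjusted p = 2.00e-10). In Bmal1 WT pDC it was 2915, 1518 and 3409 CPM, also above each of those class means. Runx2, a factor that acts with Tcf4 in pDC maturation and egress, was 1247, 1199.7 and 809 CPM against 13.8, 32.7 and 38.4 CPM, and Spib was 289.9, 169 and 134 CPM against 0, 16.9 and 3.48 CPM. Irf8 was 2978, 3668 and 3382 CPM against 1989.7, 1401 and 146 CPM, so its log2 fold of 2.18 ± 0.26 rested mainly on the Cd209a/Mgl2 class. Of 10 tested factors 8 were higher (Tcf4, Irf8, Irf7, Spib, Runx2, Zeb2, Ikzf1 and Ikzf2) and none was lower by edgeR; the Ikzf2 call was lost without Empty vector h1 or h7. Spi1 (PU.1) had a log2 fold of -0.84 and Cbfa2t3 one of -0.72, without passing; under TMM scaling 2 of the 10 were lower.

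Id2, the inhibitor that opposes Tcf4, was 315, 0 and 82.8 CPM in pDC and 768 ± 442 in the Xcr1 class, 2678 ± 236 in the mature class and 956 ± 221 in the Cd209a/Mgl2 class. All pDC values lay below every value of the other classes, with a log2 fold of -3.38 ± 0.49 (edgeR adjusted p = 4.40e-05). Batf3, needed for Xcr1 dendritic cells, was 8.28, 0 and 0 CPM in pDC and had class means of 101, 373 and 131 CPM. Zbtb46, a factor of conventional dendritic cells, averaged 22.8 ± 13.2 CPM in pDC with a log2 fold of -1.52 ± 0.43 (edgeR adjusted p = 0.0162); without Empty vector h1 or h7 that call was lost.

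**Figure D3:**
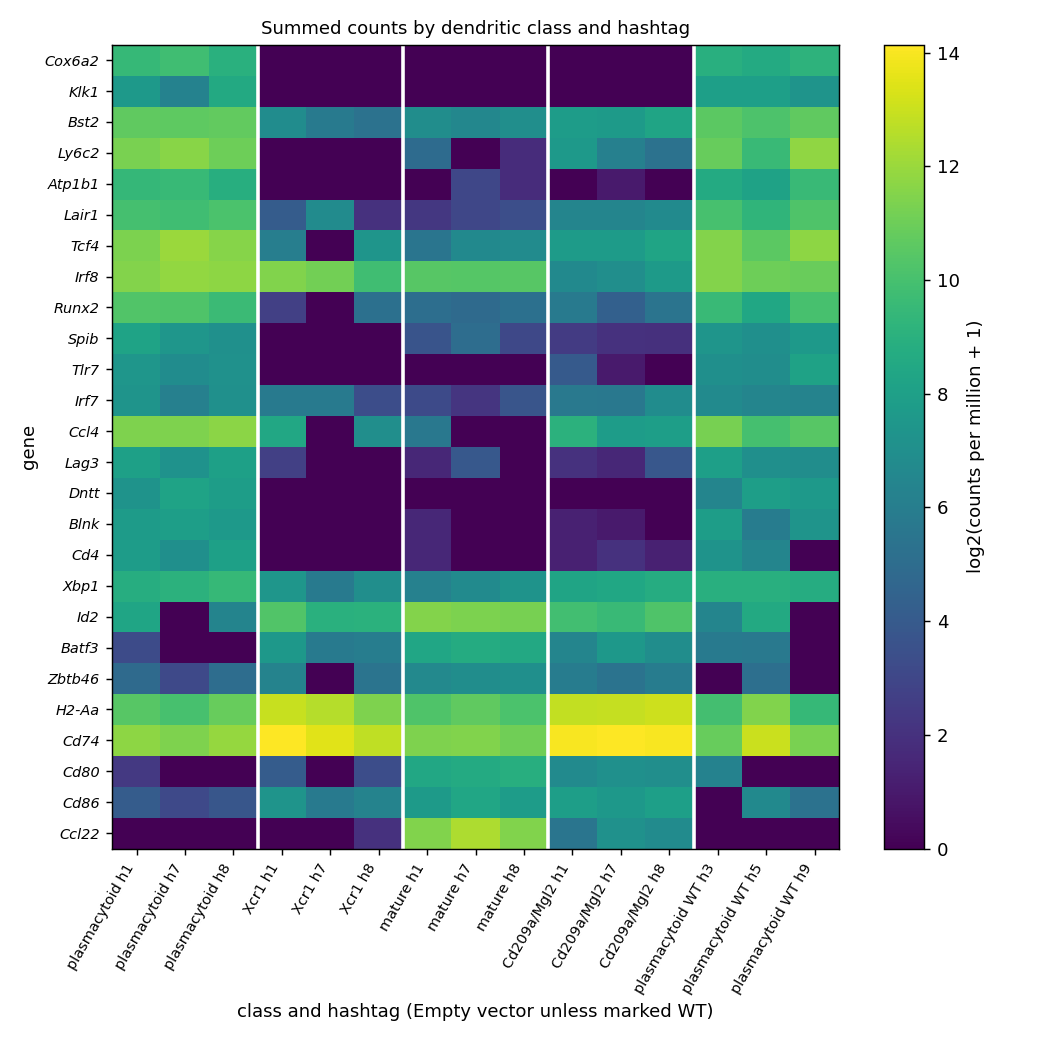
Each cell of the map is log2(CPM + 1) of 1 gene (rows) in the summed counts of 1 class and hashtag (columns), with Empty vector classes in the first 4 blocks and Bmal1 WT pDC in the last. Cox6a2, Klk1 and Dntt are at 0 in all 9 columns of the other classes, and Ccl22 is at 0 in all 6 pDC columns.

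Over all genes, the 15 with the largest fitted fold among 1043 eligible higher genes included Cox6a2, Gm21762, Iglc3, Klk1, Cd8b1, Atp1b1, Dntt, Mctp2, Slpi, Paqr5, Iglc2, Cdh5, Smim5 and Ly6c2. The predicted gene Gm21762 averaged 455 ± 89.8 CPM in pDC and was at least 641-fold above the limit of 3 counts. Cd8b1, the CD8 beta chain, averaged 431 ± 238 CPM and its ratio to the other classes pooled was 904 (95% counting interval 247 to 7509). Atp1b1, a sodium pump subunit, averaged 628 ± 148 CPM with a ratio of 647 (95% counting interval 250.4 to 2389). Cdh5, the cadherin of endothelial junctions, averaged 222 ± 73.6 CPM with a ratio of 464 (95% counting interval 126 to 3872). Slpi, Paqr5, Iglc2, Dntt and Klk1 were not called by DESeq2.

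Several genes known from lymphocytes were found in pDC. Of 14 listed, 5 had too few UMIs for a test (Rag1, Blk, Cd79b, Iglc1 and Jchain), 8 were higher and Ptpn22 did not pass; most of the 8 reached the minimum through their pDC counts. Dntt (terminal transferase, which adds bases at V(D)J joints) was 153, 292 and 236 CPM and at least 288-fold above the limit of 3 counts, with no UMI in the sums of the other classes. Iglc3, a lambda light chain constant gene whose reads can be shared with Iglc2, was 248, 231 and 369 CPM and at least 381-fold above that limit. Cd4 was 228, 131 and 261 CPM, with a log2 fold of 7.78 ± 0.48, and 151, 86.3 and 0 CPM in Bmal1 WT. The B cell adaptor Blnk averaged 216 ± 23.8 CPM (log2 fold 8.12 ± 0.48), Ly6a (Sca-1) 1123 ± 343 CPM and Cd8a 90.0 ± 29.9 CPM. The B cell markers Cd79a and Ms4a1 were at 0 in the same cells, as given above.

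Some genes of nucleic acid sensing were higher in pDC. Tlr7, the endosomal receptor for single-stranded RNA, was 169.8, 115 and 140.1 CPM in pDC, had no UMI in the sums of the Xcr1 and mature classes and averaged 5.31 CPM in the Cd209a/Mgl2 class. Its log2 fold was 7.60 ± 0.73 (edgeR adjusted p = 1.85e-06), and it had a UMI in 41 of 76 members. Tlr9 had a UMI in 3 members and lay under the minimum of 50 UMIs for a test. Unc93b1, which carries these receptors to endosomes, averaged 541 ± 44.5 CPM against 312, 99.4 and 351 CPM, a log2 fold of 1.28 ± 0.27, and lost its call without Empty vector h7. Slc15a4, a lysosomal transporter needed for their signalling, averaged 171 ± 58.5 CPM (log2 fold 2.35 ± 0.31). In all 6 of 16 tested sensing genes were higher (Tlr7, Unc93b1, Slc15a4, Irf7, Pld4 and Ctsb), against 15.7% of all genes. None was lower with scaling by totals, while 1 was lower under TMM scaling and 2 by DESeq2. Irak1, Irak4, Traf3, Traf6 and Myd88, which relay the signal, did not pass, with log2 folds from -0.42 to 0.79.

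No UMI of any listed Ifna gene or of Ifnb1 was found in the 76 members (0 of 76 cells, which allows a share of up to 3.95% of cells with a UMI; 3 counts in the 812981 UMIs of the members are 3.69 CPM). Of 28 interferon and cytokine genes 20 were under the minimum for a test. Interferon-stimulated genes were mostly near the other classes. Of 20 tested, 4 were higher (Bst2, Ifi44, Irf7 and Stat2), against 15.7% of all genes. Their list had a median log2 fold of 0.70 against 0.19 over all genes. None was lower with scaling by totals, while 1 was lower under TMM scaling and 2 by DESeq2. Irf7, the factor that drives interferon genes, was 162, 69.2 and 134 CPM against 39.8, 7.83 and 73.3 CPM (log2 fold 2.31 ± 0.41, edgeR adjusted p = 3.38e-04). Isg15, a general interferon response gene, had a log2 fold of -0.21 and Ifit3 one of 0.77, neither past the test.

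The chemokine Ccl4, which attracts monocytes and T cells, was the 1 cytokine gene called higher. It was 2700.2, 2707 and 3255 CPM in pDC and 158 ± 177 in the Xcr1 class, 16.6 ± 28.7 in the mature class and 334 ± 176 in the Cd209a/Mgl2 class, with a log2 fold of 5.10 ± 0.38 (edgeR adjusted p = 1.11e-08). It had a UMI in 61 of 76 members and was 2429.6, 1009 and 1427 CPM in Bmal1 WT pDC. Il12a, the p35 chain of interleukin-12, averaged 87.4 ± 29.3 CPM in pDC and had no UMI in the sums of the other classes, at least 111-fold above the limit of 3 counts, but it had too few UMIs for the test. Its partner chain Il12b had no UMI in the pDC sums and class means of 25.5, 469 and 8.12 CPM, at least 29.0-fold lower in pDC (edgeR adjusted p = 0.0271; 0.10 by DESeq2, without a call). Ccl5 was 29.0, 7.69 and 0 CPM in pDC and averaged 4989 CPM in the mature class, so its log2 fold of -2.93 ± 0.76 rested on that class, and the call was lost without Empty vector h7.

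Several genes of antigen presentation were lower in pDC. Of 13 genes of MHC class II and co-stimulation 7 were lower and none higher (median log2 fold -1.26), against 6.32% and 15.7% of all genes. Cd86, a co-stimulatory ligand, was 16.6, 7.69 and 12.7 CPM in pDC and 98.6 ± 55.2 in the Xcr1 class, 254 ± 66.1 in the mature class and 226 ± 37.9 in the Cd209a/Mgl2 class, with no overlap and a log2 fold of -3.80 ± 0.46 (edgeR adjusted p = 4.28e-06). Cd80, its relative, was 4.14, 0 and 0 CPM against 8.37, 408 and 123 CPM. H2-Aa was 1425, 1038 and 1879 CPM against 5606, 1336 and 7911 CPM, and the invariant chain Cd74 averaged 3307 ± 554 CPM against 12042, 2596 and 16942 CPM. For both of these pDC lay below the Xcr1 and Cd209a/Mgl2 classes and not below the mean of the mature class, and the H2-Aa call (log2 fold -1.40 ± 0.29) was lost without Empty vector h7. The peptide loading genes H2-DMa and H2-DMb1 had log2 folds of 0.55 and 0.27 and did not pass.

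Genes of conventional dendritic cells went both ways, with 4 of 14 tested higher and 5 lower, against 15.7% and 6.32% of all genes. The higher ones were Sirpa, Clec10a, Irf4 and Itgax, and each was high also in the Cd209a/Mgl2 class. Sirpa averaged 167 ± 7.50 CPM in pDC and 209 CPM there, Irf4 111 and 178 CPM, and Itgax 230.3 ± 19.7 and 370.4 CPM. The lower ones were Id2, Batf3, Zbtb46, Itgae and Ccl22.

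The 10 most reduced genes among 436 eligible were Ccl17, Cxcl16, Bcl2a1a, Qpct, Ly75, Fnbp1l, Aldh1a2, Adam23, Ccrl2 and Ccl22, all at 0 in the 528510 UMIs of the hashtagged Empty vector pDC, where 3 counts are 5.68 CPM. Against that limit, Ccl17 and Ccl22, ligands of Ccr4, were at least 224-fold and 192-fold lower in pDC than in the other classes pooled. Ccl17 averaged 122, 867 and 1728 CPM in the Xcr1, mature and Cd209a/Mgl2 classes. Ccl22 averaged 0.999, 3739 and 100 CPM there, so its difference rested mainly on the mature class. It was not called against the Xcr1 class alone, and the Ccl22 call was lost without Empty vector h8. Ly75 (DEC-205, an antigen uptake receptor) was at least 31.3-fold lower and Aldh1a2, which makes retinoic acid, at least 25.1-fold lower. These limits are for Empty vector. In the hashtagged Bmal1 WT pDC, Ccl17, Ly75 and Ccl22 were also at 0. The others had UMIs there: Ccrl2 18, Bcl2a1a 13, Cxcl16 10, Qpct 10, Adam23 5, Fnbp1l 3 and Aldh1a2 3.

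**Figure D4:**
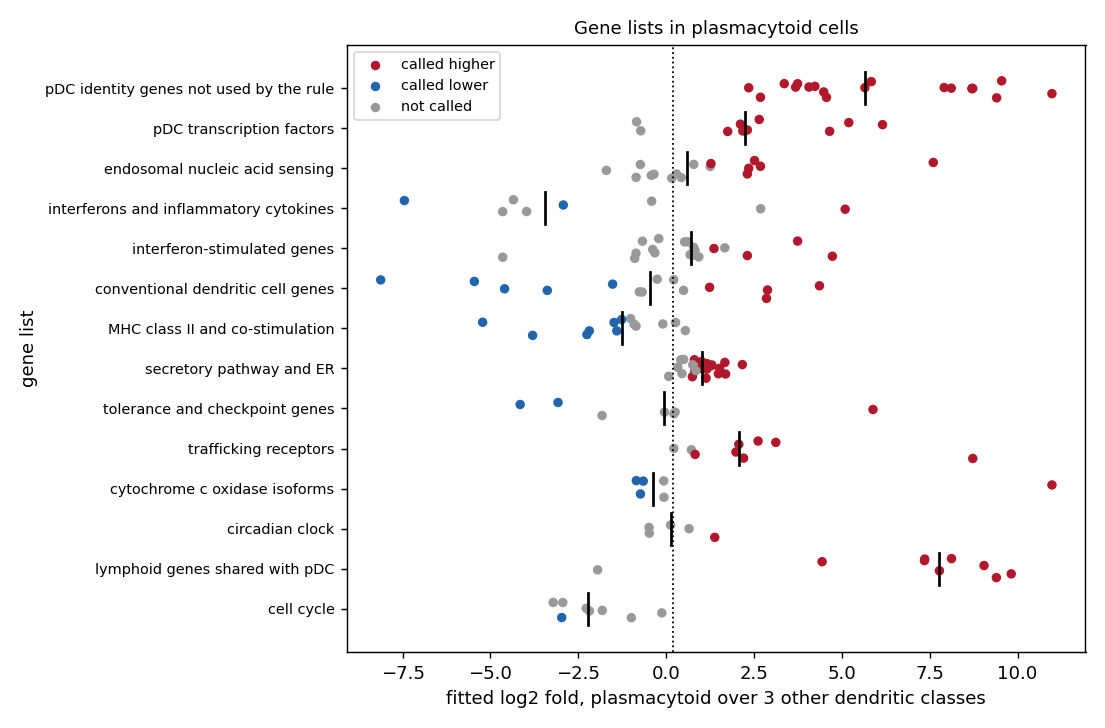
Each point is 1 tested gene of a list (rows) at its fitted log2 fold of pDC over the mean of 3 other dendritic classes (x), colored by whether edgeR called it; black bars are list medians and the dotted line is the median of all genes, 0.19. The identity and lymphoid lists lie right of that line apart from 1 gene, and MHC class II and co-stimulation has a median of -1.26.

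Most genes of the secretory pathway were higher in pDC. Of 23 genes tested 16 were higher and none was lower, against 15.7% and 6.32% of all genes. The median log2 fold was 1.01 against 0.19 over all genes, and 13 were higher under TMM scaling. Xbp1, the factor of the unfolded protein response that plasma cells use to build their secretory apparatus, was 451, 538 and 701 CPM in pDC and 118 ± 58.0 in the Xcr1 class, 111 ± 39.1 in the mature class and 359 ± 68.0 in the Cd209a/Mgl2 class, with a log2 fold of 1.67 ± 0.23 (edgeR adjusted p = 2.00e-05). The chaperone Hsp90b1 averaged 1481 ± 178 CPM against 1337, 172 and 590.5 CPM, close to the Xcr1 class. Edem2, which sorts misfolded glycoproteins, averaged 119 ± 10.4 CPM (log2 fold 2.17 ± 0.33). Calr, Sec61g, Ssr2, Ssr4, Spcs1, Sdf2l1 and Edem1 did not pass.

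Of 9 tested trafficking receptors 7 were higher and none lower, against 15.7% and 6.32% of all genes. The higher ones included Cx3cr1, Ccr2, Cxcr4, Selplg and Itgb2. Ccr2, a receptor for exit from the marrow, averaged 426 ± 109.6 CPM (log2 fold 2.62 ± 0.32), Cxcr4 330.4 ± 88.1 CPM (2.07 ± 0.40) and the selectin ligand Selplg 1259.6 ± 180.2 CPM (1.99 ± 0.24). Itgb2 was not called under TMM scaling or by DESeq2. Cx3cr1 was not called by DESeq2, without the replicate block or with at least 6 Siglech UMIs (log2 fold 1.65). Of its 32 UMIs in the 76 members, 28 were in the 20 members with 1 to 5 Siglech UMIs.

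Of 7 tested tolerance and checkpoint genes, Lag3 was higher and Pdcd1lg2 and Havcr2 were lower, against 15.7% and 6.32% of all genes. The Pdcd1lg2 call was lost without Empty vector h8, and that of Havcr2 without h7, with hashtags assigned by centred log counts and with Bmal1 WT replicates added. Lag3, an inhibitory receptor that binds MHC class II, was 257, 146 and 261 CPM against 1.79, 5.34 and 6.04 CPM, with a log2 fold of 5.89 ± 0.50 (edgeR adjusted p = 5.68e-08). Cd274 (PD-L1) had a log2 fold of -1.82 ± 0.65 and did not pass (edgeR adjusted p = 0.0511). Ido1, Gzmb, Tnfsf10, Il10, Pdcd1, Tnfsf4 and Nt5e were under the minimum for a test.

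Among 6 tested subunits of cytochrome c oxidase the muscle-type Cox6a2 was higher and Cox6b1, Cox7a2 and Cox8a were lower (against 15.7% and 6.32% of all genes). Its ubiquitous counterpart Cox6a1 averaged 289 ± 11.3 CPM in pDC and 397, 249 and 319 CPM in the other classes, with a log2 fold of -0.06 ± 0.24 (edgeR adjusted p = 0.906). Thus the pDC held transcripts of both isoforms. Cox8a averaged 575 ± 79.8 CPM against 1483, 779 and 1007 CPM (log2 fold -0.85 ± 0.23). That call was lost without Empty vector h7 or h8, as was that of Cox7a2, which was also lost with no gene minimum and with Bmal1 WT replicates added. The Cox6b1 call was lost in 6 alternatives, among them each Empty vector replicate left out, no gene minimum and the stricter cell filter.

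Of 19 clock genes 14 were under the minimum, among them Arntl, which encodes Bmal1 and had 7 UMIs in 6 of the 76 members. Clock, Per1, Nfil3 and Bhlhe40 did not pass, and Cry1 was called higher (log2 fold 1.38 ± 0.43, edgeR adjusted p = 0.0260) but not under TMM scaling or by DESeq2. Of 8 cell cycle genes 1 was lower, the replication helicase subunit Mcm5, against 6.32% of all genes. That call was lost without the replicate block, with Bmal1 WT replicates added (log2 fold -1.02) and without Empty vector h1 or h7. Mki67 had a log2 fold of -2.94 without passing.

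Between Bmal1 WT and Empty vector pDC 2807 genes could be tested over 3 against 3 hashtag sums, and edgeR called 4 (0.143%), all higher in Bmal1 WT, with 273 at an unadjusted p under 0.05. Genes of the gates were not left out of this comparison, so Bcl11a of the member rule was among the genes tested. Of the 228 distinct genes on the lists 113 were tested and none was called by edgeR (smallest adjusted p = 0.21); 17 had an unadjusted p under 0.05, 6 of them higher and 11 lower, and DESeq2 called 1, Ccl3. Over the 113 the median log2 fold was -0.33, against -0.08 over all genes. With 15 hashtagged Bmal1 WT cells, these tests do not show that the pDC of the groups are alike.

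The gene called between the groups with values in every replicate was Vim (vimentin, an intermediate filament protein; chr2:13573927-13582826). It was 605, 415 and 344 CPM in Empty vector h1, h7 and h8 and 1619.7, 1380.1 and 1467 CPM in Bmal1 WT h3, h5 and h9. The groups did not overlap, and the log2 fold was 1.70 ± 0.27 (SE, edgeR adjusted p = 0.0188). Among members with 1 to 5 Siglech UMIs, Vim was 1329 CPM (Empty vector) and 2911 CPM (Bmal1 WT), and among the others 225 and 449 CPM, so it was higher in Bmal1 WT on both sides of that limit, which was set after the data were seen. Over members with at least 6 Siglech UMIs, Vim was 274, 252 and 169 CPM in the Empty vector hashtags against 526, 483 and 137 CPM in those of Bmal1 WT, the groups overlapped and the call was lost (log2 fold 0.92, edgeR adjusted p = 0.567). The call was lost as well with at least 2 Siglech UMIs (log2 fold 1.39). With only cells holding a Cox6a2, Klk1, Klra17 or Cd300c UMI it was also lost (1.77). The same held without Empty vector h7 or h8 or Bmal1 WT h3 (log2 folds 1.64, 1.53 and 1.62). A single Bmal1 WT member, with 1 Siglech UMI, held 80 of the 348 Vim UMIs of that library's pDC. Among Bmal1 WT members with 6 or more Siglech UMIs, 2 cells held 15 and 21 of the 65 Vim UMIs. These are the 2 cells with Il1b UMIs described below, and their part in the Vim difference was not tested.

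The other called genes rested on 2 cells. Il1b, an inflammatory cytokine, was 12.4, 0 and 0 CPM in the Empty vector hashtags and reached 1598, 362 and 0 CPM in those of Bmal1 WT. Chil3, a chitinase-like protein of monocytes, was 4.14, 0 and 0 CPM against 378, 164 and 0 CPM, and Cxcl2, a neutrophil chemokine, was 0 in each Empty vector hashtag and 799, 207 and 0 CPM in Bmal1 WT. All 190 Il1b UMIs of Bmal1 WT pDC were in 2 members (148 and 42), which also held 34 and 19 of the 54 Chil3 UMIs and 74 and 23 of the 98 Cxcl2 UMIs. For all 3 genes the groups overlapped, and DESeq2 did not call them (adjusted p = 0.675, 0.423 and 0.954).

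These 2 cells passed as pDC by the markers and also held monocyte transcripts. The first, of h3, had 26 Siglech UMIs and 8 of the 10 markers, with 34 UMIs of Cd14 and 7 of Lyz2 (lysozyme); the second, of h5, had 53 Siglech UMIs and all 10 markers, with 26 of Cd14 and 45 of Lyz2. With 22455 and 26231 UMIs they were the 4th and the 2nd deepest of the 76 members. Adgre1 (F4/80) was at 0 in both. The macrophage or monocyte list summed to 203, 115 and 497 CPM in Empty vector h1, h7 and h8 and 659, 768 and 396 CPM in Bmal1 WT h3, h5 and h9. Its part in these calls was not tested.

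**Figure D5:**
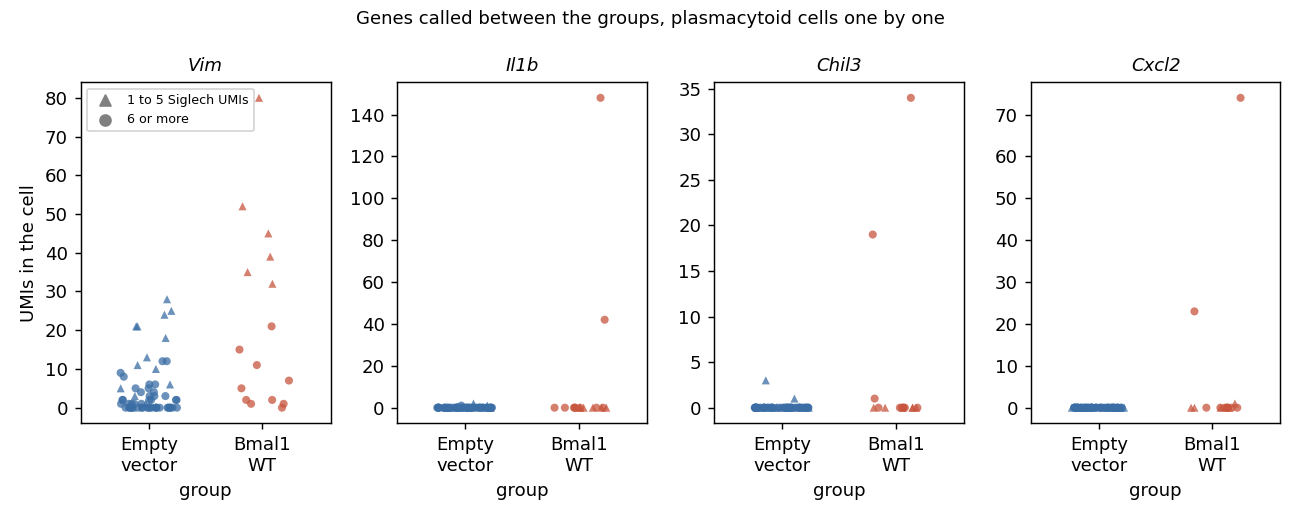
UMIs per cell (y) of the 4 genes called between the groups, 1 point per pDC (spread sideways for visibility), in Empty vector and Bmal1 WT (x); triangles are members with 1 to 5 Siglech UMIs. The highest Vim points are triangles, and the 190 Il1b UMIs of Bmal1 WT sit in 2 cells.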

How the data were processed

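Droplet single-cell 3' RNA-seq with hashtag antibodies was analysed for Empty vector and Bmal1 WT (3 hashtag replicates each); the Bmal1 bHLH files repeat those of Bmal1 WT in 3 of 3 parts and were not analysed here. The authors deposited raw UMI counts per gene and barcode, already filtered to cells. The matrix header names Cell Ranger 6.1.2 and the submitters' notes name mm10; the sources used here do not name the gene annotation. Counts of both parts were not normalized.

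Barcodes with at least 200 genes and at most 20% mitochondrial UMIs were kept (3 kept barcodes occurred in both libraries). Hashtag limits came from a mixture of 2 components on the log counts, with minimum counts of 64, 19 and 135 for h1, h7 and h8 and 159, 17 and 72 for h3, h5 and h9; cells with several or none were left out of replicate values. UMIs were summed per class and hashtag and scaled by total UMIs. Genes with at least 50 UMIs over the sums entered edgeR 4.0.16 quasi-likelihood tests (R 4.3.3, limma 3.58.1), checked on simulated data, with DESeq2 1.42.0 as an alternative; adjusted p-values use Benjamini-Hochberg over all genes tested, with 0.05 as the threshold. Cell classes of 1 hashtag come from the same cell suspension, so the hashtag was a block in the comparison of classes; the groups share no hashtag, so no block was used between them. Shares were compared by exact permutation. Intervals are exact at 95%, and the limit for a count of 0 is 3 counts. Python 3.11.15, numpy 2.4.6, scipy 1.17.1, scikit-learn 1.9.0 and pandas 2.3.3 were used.

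Named genes were those of 14 lists plus, among genes called with the same direction in each of 3 hashtags and against each of 3 classes and at least 20 UMIs on the higher side, the 15 highest and 10 lowest fitted folds and the genes called between the groups (at most 10); some of these are not reported here. The members and lists were chosen with earlier results of these data known. Promoter sequences are from RefSeq (GRCm38.p6) and gene coordinates from GENCODE M21 (GRCm38). Alternatives covered scaling, the gene minimum, hashtag assignment, cell filters, the member rule, the block, added Bmal1 WT replicates and single replicates left out; the limit of 6 Siglech UMIs and the test of the class contrast between groups were added after seeing the data.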

Additional observations from a re-analysis of the deposited data

Results flagged for a closer look

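The contrast of pDC with the other dendritic classes differed between the groups for 1 of the 25 named genes in a test of that difference (edgeR interaction, 8914 genes tested, 4 called, 497 at an unadjusted p under 0.05). Ccrl2, an atypical receptor that holds the chemoattractant chemerin, had a difference of 7.62 ± 1.38 (SE) on the log2 scale, Bmal1 WT minus Empty vector (adjusted p = 0.0324). It was at 0 in the pDC of h1, h7 and h8 and at 129.6, 51.8 and 0 CPM in those of h3, h5 and h9, so the fitted size is no bound. Most of its Bmal1 WT UMIs (12 and 4) were in the same 2 cells that held the Il1b UMIs. For several named genes at 0 in the Empty vector pDC or in at least 1 other Empty vector class, this difference could not be estimated.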

How the results depend on the processing

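The difference in pDC share between the groups kept its sign under every alternative run, from -1.03 (without Empty vector h8) to -0.480 percentage points (without Empty vector h7) when single replicates were left out. Against the other dendritic classes, 694 to 1085 genes were higher and 244 to 442 lower with single replicates left out, the lowest counts of each without Empty vector h7, which leaves fewer samples. Without the replicate block 1304 were higher and 518 lower, and with Bmal1 WT replicates added 1604 and 672; DESeq2 gave 851 and 642. Between the groups the 4 calls became 10 with DESeq2, 83 with no gene minimum, 9 with at least 6 Siglech UMIs (a limit chosen after seeing the data) and 0 to 10 with single replicates left out. Leaving out Empty vector h7 or Bmal1 WT h3 gave 0, Empty vector h8 1 and Bmal1 WT h9 10. The causes were not tested. Dropping Ly6d from the rule or removing cells with a UMI of B cell genes such as Cd79a and Ms4a1 (Ighd not among them) changed no member. No result reversed. Of the named and listed genes' results, 121 kept their side of the threshold throughout and 58 changed it somewhere, most often Cry1 and Itgb2 (7 alternatives each); 21 lost their call without Empty vector h7, among them Ikzf2, Ccl5, Havcr2 and Itgax. With 15 hashtagged Bmal1 WT cells, depth limits the comparison between groups.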
